A study of Mus musculus with 4 samples.

Results

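Natural killer (NK) cells were taken from single-cell RNA sequencing libraries of mouse tibial muscle as cells with at least 1 unique molecular identifier (UMI, a tag that counts 1 captured transcript) of *Ncr1* or *Klrb1c* and at least 1 of *Ptprc*. They also had 0 UMIs of the T cell genes *Cd3d*, *Cd3e* and *Cd3g*, of the B cell gene *Cd79a* and of *Siglech*, a gene of plasmacytoid dendritic cells, and at most 10% mitochondrial UMIs. The rule found 1701 NK cells among the 59824 cells that met the mitochondrial limit. It uses measured counts, so *Ncr1*, *Klrb1c*, *Ptprc* and the excluded genes describe how the cells were chosen and are no result.

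All 4 libraries came from *Nse-Bmp4* mice of 6 to 8 weeks on a C57BL/6 background, in which the promoter of neuron specific enolase drives the bone morphogenetic protein gene *Bmp4*, and no library of mice without the transgene was analysed here. The libraries were 1 of muscle without injury (Uninjured) and 1 each on day 1, 3 and 7 after injection of cardiotoxin, a snake venom toxin that destroys muscle fibres, where dpi stands for days post injury. Each library pooled 3 muscles. With 1 library per time point, time point and library cannot be told apart, cells are not replicates, and no test between time points was possible. The intervals given are 95% intervals of counting error only.

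NK cells are innate lymphocytes that kill stressed, infected or transformed cells by releasing perforin, which opens the target membrane, and granzymes, proteases that start cell death inside the target. Whether a cell is killed depends on the balance of activating receptors with inhibitory receptors for class I MHC molecules, and NK cells also secrete interferon gamma and chemokines that act on macrophages, dendritic cells and T cells. They depend on interleukin 15 and on the T-box factors T-bet and *Eomes*, and in injured muscle they are among the lymphocytes that follow the first neutrophils and monocytes.

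The 4 libraries, given throughout in the order Uninjured, 1, 3 and 7 dpi, held 120, 413, 691 and 477 NK cells of 11827, 10853, 14118 and 23026 cells. Their NK cells had a median of 3014.5, 4719, 3602 and 2380 UMIs per cell and summed to 523158, 2644486, 3721270 and 1826837 UMIs. The Uninjured profile was thus the least precise, and a gene with 0 UMIs there could still reach 5.73 UMIs per 1000000 UMIs of the NK cells (CPM, the level used below), against 1.13, 0.806 and 1.64 CPM in the other libraries. Mitochondrial transcripts were 1.698%, 2.94%, 3.17% and 2.87% of the NK UMIs.

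The 5 marker genes lie on 5 chromosomes of the mouse assembly GRCm38, with positions from GENCODE M21. *Ncr1* (ENSMUSG00000062524, chr7:4337724-4345164, plus strand) encodes NKp46, an activating receptor, and *Klrb1c* (ENSMUSG00000030325, chr6:128778485-128789215, minus strand) encodes NK1.1. *Gzma* (ENSMUSG00000023132, chr13:113093825-113100981, minus strand) encodes granzyme A and *Prf1* (ENSMUSG00000037202, chr10:61297833-61304680, plus strand) encodes perforin. *Eomes* (ENSMUSG00000032446, chr9:118478212-118486132, plus strand) encodes the T-box factor that separates NK cells from other group 1 innate lymphoid cells. RUNX3 is a known regulator of NK cell genes, and the 200 bases upstream of the RefSeq start of these genes were searched for the RUNX core TGTGGT on both strands, a motif chosen after other results were known. The core was present in 4 of the 5 windows (all but that of *Eomes*) and in 11.2% of all 32851 RefSeq promoter windows of the same length. The ETS core AGGAAG was in 2 of the 5 windows and in 24.7% of all windows. The T-box letters TCACACC (2.64% of all windows), the STAT letters TTCNNNGAA (5.49%) and the AP-1 letters TGANTCA (5.48%) were in none of the 5. The windows of *Ncr1* (chr7:4337515-4337714), *Gzma* (chr13:113100982-113101181) and *Prf1* (chr10:61297636-61297835) are shown 5′ to 3′ on the strand of the gene (GRCm38, RefSeq) with the RUNX core or its reverse complement in capitals, because the levels of the latter genes carry much of what follows.
Ncr1: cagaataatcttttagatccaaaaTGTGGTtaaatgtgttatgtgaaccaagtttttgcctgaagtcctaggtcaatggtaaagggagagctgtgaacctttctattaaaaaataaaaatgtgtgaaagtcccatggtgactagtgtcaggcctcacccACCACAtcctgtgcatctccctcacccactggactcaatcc
Gzma: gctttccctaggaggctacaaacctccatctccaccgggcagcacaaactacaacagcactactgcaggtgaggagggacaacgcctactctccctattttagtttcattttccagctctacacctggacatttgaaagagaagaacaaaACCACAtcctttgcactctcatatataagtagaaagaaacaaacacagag
Prf1: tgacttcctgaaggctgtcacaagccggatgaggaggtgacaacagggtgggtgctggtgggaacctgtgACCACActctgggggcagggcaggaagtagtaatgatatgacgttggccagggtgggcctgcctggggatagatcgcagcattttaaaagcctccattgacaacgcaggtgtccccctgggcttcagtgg
The core is upstream of both granule genes in the minus orientation, and upstream of *Ncr1* in both orientations. A match of letters is a description and not a binding site.

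The label was checked with genes that the rule did not use. *Nkg7*, a granule membrane protein of cytotoxic lymphocytes, stood at 2263, 1359, 1038 and 1258 CPM, *Klrd1*, the CD94 receptor chain, at 627, 347, 438 and 376 CPM, and *Il2rb*, the receptor chain shared by interleukins 2 and 15, at 573, 1035, 812 and 390.3 CPM. *Eomes* was at 153, 321, 313 and 133 CPM, so that NK transcripts outside the rule were found in each library. At the edge of the rule, 21, 66, 179 and 181 cells (17.5%, 15.98%, 25.9% and 37.9%) had a single UMI of *Ncr1* or *Klrb1c*. *Gzma* in these cells was at 4780.4, 1509, 1738 and 1745 CPM, against 8832, 2785, 2973 and 2925 CPM in cells with at least 2 UMIs. The cells outside, which met every other condition but had 0 UMIs of both genes, had 25.99, 8.66, 43.8 and 113 CPM. They numbered 699, 2872, 2897 and 2027 and could be leukocytes of any kind that the rule did not exclude. Their low level is therefore no test of whether the cells with a single UMI are NK cells. Pairs of libraries shared 30 to 95 barcodes, but for NK cells only 1 barcode, between 1 and 7 dpi.

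A portion of the gated cells carried more RNA of another lineage than of NK cells. Leiden clustering gave 13 clusters, and in 4 of them the summed level of a list of mesenchymal, neutrophil or muscle fibre genes was above that of 5 further NK genes (*Nkg7*, *Klrd1*, *Klrk1*, *Tbx21* and *Il2rb*). The list of T cell genes was left out of this check, so a cluster led by T cell genes would not have been found. The first of these clusters (109 cells, led by *Gsn*, *Dcn* and *Pi16*) had 22224 CPM of mesenchymal genes and 1107 CPM of the NK genes. The neutrophil cluster (63 cells, led by *S100a9*, *Camp*, *Ngp* and *Mpo*) had 24881 CPM of neutrophil genes and 1527 CPM of the NK genes. The muscle cluster (13 cells, led by *Ttn*, *Acta1* and *Myog*) had 3115 and 512 CPM. The last (122 cells, 108 of them from 7 dpi, led by the cartilage and bone genes *Col2a1*, *Ibsp* and *Acan*) had 28765 CPM of mesenchymal genes and 499.5 CPM of the NK genes. These cells numbered 13, 51, 113 and 130 in the 4 libraries, or 10.8%, 12.3%, 16.4% and 27.3% of the gated cells, and 18.05% of all (16.2 to 19.96). Their median of 7648 UMIs per cell was above the 3205.5 of the others. Whether they are doublets, other cells with free NK RNA or something else was not tested, and many values are therefore also given over the 1394 cells of the other 9 clusters, called NK-led cells below (107, 362, 578 and 347 cells). Values with no such statement are over the gated cells. The 9 clusters had 3495 to 5957 CPM of the further NK genes.

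**Figure D1:**
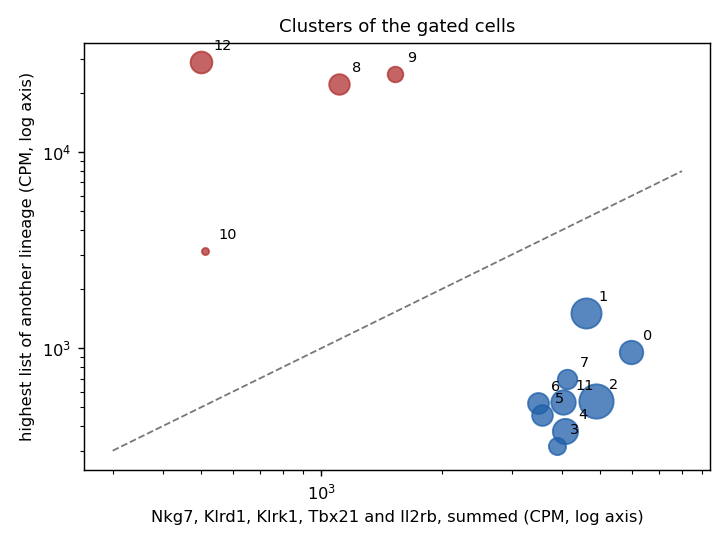
Summed CPM of 5 further NK genes (x axis, log scale) against the highest summed CPM of any other-lineage list except the T cell list (y axis, log scale) for the 13 clusters of gated cells, with point area in proportion to the number of cells and a dashed line at equality. The 4 red clusters (8, 9, 10 and 12) lie above the line, and the 9 blue clusters lie below it with at least 3495 CPM of the NK genes.

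The level of other-lineage RNA differed between the libraries and is given here beside all that follows. The 7 mesenchymal genes summed to 10463, 2102, 5463 and 17464 CPM over the gated cells, led by *Dcn*, *Dcn*, *Col3a1* and *Col1a1*, and to 616, 276, 545 and 1492 CPM over the NK-led cells. The 6 neutrophil genes, led by *S100a9* at 1 and 3 dpi, summed to 1.91, 4483, 1413 and 19.2 CPM over the gated and 0, 222, 67.6 and 6.75 CPM over the NK-led cells. The 6 cartilage genes summed to 11.5, 0, 0.537 and 3620.5 CPM, with all 6 at 0 UMIs at 1 dpi, and to 0, 0, 0.422 and 234 CPM over the NK-led cells. The NK-led cells thus held a small part of the RNA of these lineages, but were not free of it. The 8 dendritic cell genes (top gene *Itgax* in Uninjured and *Cd74* in the other libraries) stood at 124, 388, 1553 and 998 CPM over the gated and 136, 240.4, 308 and 208 CPM over the NK-led cells, and the 9 monocyte and macrophage genes (top gene *Lyz2*) at 1187, 557, 404 and 406 and 10.8, 55.7, 44.4 and 34.9 CPM. *Itgax* was at least 2-fold higher in NK cells than in CD8 T cells of every library, so the dendritic cell list may hold RNA of the NK cells themselves. The 9 T cell genes outside the rule stood at 463, 671, 691 and 494 CPM over the gated and 618, 832, 965 and 875 CPM over the NK-led cells. They were thus not lower when the other-lineage clusters were left out. *Trbc1* led them with 233, 266, 294 and 213 CPM over the gated cells. Genes of B cells stood at 74.5, 179, 165 and 435 CPM over the gated and 78.6, 198, 222 and 154 CPM over the NK-led cells, led by *Igkc* at 7 dpi. Over the gated cells, genes of muscle fibres (19.1, 10.6, 209 and 99.1 CPM), endothelium (5.73, 46.9, 49.4 and 19.2 CPM), red blood cells (87.9, 17.4, 19.3 and 9.31 CPM), mast cells and basophils (5.73, 18.9, 3.49 and 9.31 CPM), group 2 innate lymphoid cells (51.6, 109, 96.2 and 53.1 CPM) and group 3 innate lymphoid cells (0, 0.378, 0.537 and 1.64 CPM) were also measured. The list of group 2 innate lymphoid cells holds *Gata3*, which is also listed below as a transcription factor of NK development, so its sum is not all RNA of another lineage. The part of other-lineage RNA in the results below was not tested beyond the values over the NK-led cells.

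Over the gated cells, NK cells were a larger share of all cells at 1, 3 and 7 dpi than in Uninjured muscle, with the highest share at 3 dpi, but the place of 3 dpi and of 7 dpi in this order depended on the rule. They made up 1.01% (0.842 to 1.21), 3.81% (3.45 to 4.18), 4.89% (4.54 to 5.26) and 2.07% (1.89 to 2.26) of the cells. The share at 1 dpi was 2.79 percentage points above Uninjured (2.39 to 3.21), the share at 3 dpi 1.09 points above 1 dpi (0.574 to 1.599), and the share at 7 dpi was -2.82 points from 3 dpi (-3.23 to -2.42). The difference between 3 and 1 dpi was 0.429 points (-0.03199 to 0.885) with at least 2 UMIs of *Ncr1* and *Klrb1c* and -0.134 points (-0.498 to 0.224) without cells that held 3 or more UMIs of another lineage, and both intervals include 0. Without the latter cells the shares were 0.516%, 2.11%, 1.98% and 0.452%, so that 7 dpi no longer lay above Uninjured. This setting, which also left out cells with a *Trac* or *Cd8a* UMI, removed 59, 184, 412 and 373 cells. The 4 clusters led by another lineage held 13, 51, 113 and 130. A fixed number of UMIs is met more easily in deeper cells, and some other-lineage lists hold genes also found in NK cells. How many NK cells the setting removed was not tested. NK-led cells followed the order of all gated cells at 0.905%, 3.34%, 4.09% and 1.51%.

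Among the 1443, 5696, 5230 and 3579 cells with a *Ptprc* UMI, the leukocytes, the order was different. NK cells were 8.32%, 7.25%, 13.2% and 13.3% of these cells. The difference between 1 dpi and Uninjured was -1.07 points (-2.75 to 0.478), with an interval that includes 0, and that between 3 and 1 dpi was 5.96 points (4.81 to 7.12). The difference between 7 and 3 dpi was 0.116 points (-1.33 to 1.59) over the gated cells and -1.36 points (-2.65 to -0.0391) over the NK-led cells. For each CD8 T cell (defined by *Ptprc*, *Cd8a* and CD3 UMIs, 114, 220, 244 and 99 cells) there were 1.05, 1.88, 2.83 and 4.82 NK cells. For each CD4 T cell (63, 191, 159 and 78 cells) there were 1.905, 2.16, 4.35 and 6.12. The ratio of NK cells to both kinds of T cell was thus higher in each later library than in the one before.

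**Figure D2:**
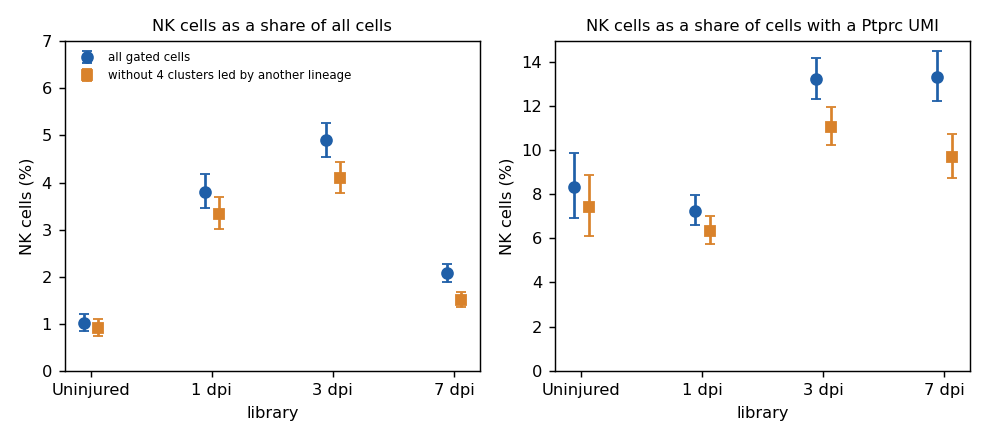
NK cells as a percent of all cells (left) and of cells with a Ptprc UMI (right) in the 4 libraries, with blue circles for gated cells, orange squares for NK-led cells and bars for 95% Clopper-Pearson intervals. The share of all cells is highest at 3 dpi (4.89%), and the share of Ptprc cells is 7.25% at 1 dpi and 13.3% at 7 dpi.

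Genes were compared between successive libraries where at least 20 UMIs were expected in both, and a gene was counted where its CPM differed at least 2-fold, a fixed size with no test behind it. The expected number came from both libraries pooled, so that between Uninjured and 1 dpi a gene high in the smaller Uninjured library passed less easily than one high at 1 dpi. Between Uninjured and 1 dpi, 3828 genes were compared over the gated cells, of which 11.4% were at least 2-fold higher at 1 dpi and 3.79% at least 2-fold lower. Between 1 and 3 dpi, 9187 genes were compared, of which 6.07% were higher and 1.19% lower at 3 dpi. Between 3 and 7 dpi, 8278 genes were compared, of which 4.58% were higher and 8.78% lower at 7 dpi. Over the NK-led cells the shares were 11% and 2.46% at 1 dpi, 3.9% and 1.64% at 3 dpi, and 1.13% and 7.89% at 7 dpi. The counts in the gene lists below are to be read against these shares and are given in the order of the 3 comparisons. The median log2 ratio of all compared genes was 0.19, -0.00 and -0.22, which is the level against which a list median is set. Of the genes counted between 3 and 7 dpi, 34.3% were higher at 7 dpi over the gated cells with scaling to total UMIs, 51.4% with TMM factors, 57.4% with median of ratios factors and 12.6% over the NK-led cells, so which direction held most of the counted genes depended on the scaling and on the cells. Between Uninjured and 1 dpi the share that was higher was 75.04%, and 63.5% with median of ratios factors. Between 1 and 3 dpi it was 83.7%, and 70.4% over the NK-led cells. Without cells that held 3 or more UMIs of another lineage, 89 genes were counted higher and 135 lower at 3 dpi. The direction that held most counted genes thus depended on the cells here too.

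Among the genes of granule proteins, the killing machinery of NK cells, *Gzma* had its highest level in Uninjured muscle. *Gzma* was at 8072, 2576, 2736 and 2574 CPM over the gated cells and at 10479, 3148, 3866 and 4565 CPM over the NK-led cells. Its level at 1 dpi was 3.13-fold (3.01 to 3.26) lower than in Uninjured, or 3.33-fold (3.195 to 3.47) lower over the NK-led cells, and the 3 injured libraries lay close together over the gated cells. The share of NK cells with a *Gzma* UMI, after thinning each cell to 1000 UMIs, was 90.5, 70.9, 71.9 and 62.8% of 116, 406, 661 and 457 cells (4, 7, 30 and 20 shallower cells were left out), and 91.7, 85.7, 84.7 and 76.3% without thinning. Over the NK-led cells the thinned share was 94.2, 73.8, 77.01 and 75.98%. In mesenchymal cells, which should lack the transcript, it was 0.0385, 0.134, 0.333 and 0.767% after thinning, at median depths of 10170.0, 10113, 10837 and 9014.5 UMIs.

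*Gzmb*, encoding granzyme B, a protease that activates caspases, stood at 640.3, 739, 264 and 249 CPM. Its level was 2.799-fold (2.59 to 3.02) lower at 3 dpi than at 1 dpi, and 2.54-fold (2.34 to 2.75) lower over the NK-led cells. *Gzmb* was thus split between a higher pair of libraries (Uninjured and 1 dpi) and a lower pair, unlike *Gzma*. *Prf1* was at 686, 558, 346 and 275 CPM, with no step of 2-fold or more, and at 903, 700.5, 479.9 and 486 CPM over the NK-led cells. *Serpinb9*, which protects the killer cell from its own granzyme B, stood at 141, 289.7, 294 and 78.8 CPM, and was 2.05-fold (1.61 to 2.64) higher at 1 dpi than in Uninjured and 3.73-fold (3.13 to 4.47) lower at 7 than at 3 dpi. *Serpinb6b*, another serpin of these cells, was at 273, 267, 409.8 and 131 CPM and 3.13-fold (2.73 to 3.61) lower at 7 dpi than at 3 dpi. *Rab27a*, the GTPase that docks granules at the membrane, was at 17.2, 63.5, 52.4 and 17.5 CPM, 3.69-fold (1.899 to 8.22) higher at 1 dpi than in Uninjured and 2.99-fold (2.05 to 4.49) lower at 7 dpi than at 3 dpi. *Serpinb9* and *Rab27a* thus had their higher levels at 1 and 3 dpi, whereas *Serpinb6b* was highest at 3 dpi and differed by 1.02-fold between Uninjured and 1 dpi. Of the 17 granule genes, 2, 0 and 1 of 13, 16 and 15 compared genes were at least 2-fold higher in the later library and 1, 1 and 3 at least 2-fold lower (median log2 ratio -0.14, -0.34 and -0.24), and in NK-led cells 2, 0 and 0 higher and 1, 1 and 2 lower of 13, 16 and 14. When only NK-led cells were summed, *Rab27a* at 7 dpi was no longer counted, while *Gzma*, *Gzmb*, *Serpinb9* and *Serpinb6b* were. *Gzmc*, a granzyme gene and the one counted higher at 7 dpi, was at 0, 9.83, 9.67 and 22.99 CPM and 2.38-fold (1.49 to 3.82) higher at 7 than at 3 dpi, and in NK-led cells it was 2.58-fold (1.55 to 4.299) higher but below the minimum of expected UMIs.

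The chemokine genes *Ccl3*, *Ccl4* and *Ccl5* had their highest levels in Uninjured muscle too. *Ccl5*, a chemokine for T cells and monocytes that is stored ready made in cytotoxic lymphocytes, stood at 14462, 4018, 3202 and 4549 CPM and was 3.599-fold (3.49 to 3.71) lower at 1 dpi than in Uninjured. *Ccl4*, a chemokine for monocytes and lymphocytes, was at 7183, 2459, 2332 and 2462 CPM and 2.92-fold (2.81 to 3.04) lower at 1 dpi. *Ccl3*, a chemokine of the same family, was at 1485, 617, 478 and 544 CPM and 2.41-fold (2.21 to 2.62) lower at 1 dpi. In NK-led cells the 3 genes were 3.72-fold, 3.24-fold and 2.62-fold lower at 1 dpi than in Uninjured. *Xcl1*, a chemokine for cross-presenting dendritic cells, was at 757, 537, 396 and 659 CPM over the gated cells, and over the NK-led cells at 995, 687, 554 and 1195 CPM, where it was 2.16-fold (1.99 to 2.34) higher at 7 than at 3 dpi. *Cxcl10* was at 243, 231, 358 and 322 CPM. Of the 7 chemokine genes, 1, 0 and 0 of 6, 6 and 6 compared genes were at least 2-fold higher in the later library and 3, 0 and 0 at least 2-fold lower (median log2 ratio -0.88, -0.35 and 0.13), and in NK-led cells 0, 0 and 1 higher and 3, 1 and 0 lower of 5, 6 and 5. The gene that was higher at 1 dpi was *Cxcl2*, whose product draws neutrophils, with 47.8, 185, 92.98 and 83.8 CPM over the gated but 5.42, 34.8, 16.1 and 10.1 CPM over the NK-led cells, so that most of its UMIs lay outside the NK-led cells.

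**Figure D3:**
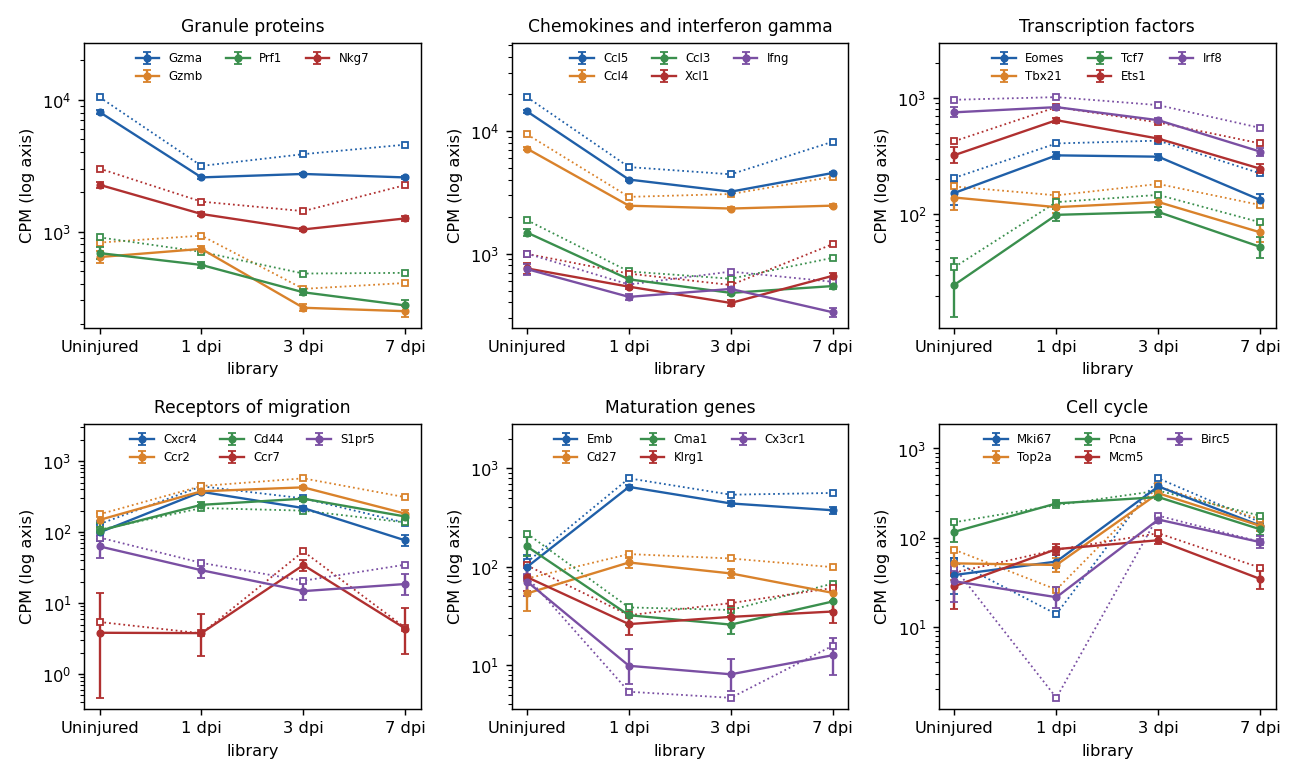
Levels of NK genes of 6 groups, 1 to a panel, in CPM (log scale) by library, with filled circles and bars for gated cells and their exact Poisson 95% intervals and open squares on dotted lines for NK-led cells. Gzma is highest in Uninjured (8072 CPM) and Eomes highest at 1 and 3 dpi (321 and 313 CPM).

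Most compared cytokine genes and, over the gated cells, all compared ligands of death receptors differed by less than 2-fold in each comparison. *Ifng*, the cytokine by which NK cells activate macrophages, was at 747, 444, 515 and 332 CPM, with no step of 2-fold or more. *Tgfb1* was at 117, 143, 148 and 126 CPM. *Ltb*, encoding lymphotoxin beta, was at 47.8, 101, 98.1 and 126 CPM and 2.105-fold (1.39 to 3.31) higher at 1 dpi than in Uninjured. Over the NK-led cells *Ltb* was no longer counted there. *Il16*, a ligand of CD4, was at 21.03, 72.6, 65.3 and 30.7 CPM, 3.45-fold higher at 1 dpi than in Uninjured and 2.13-fold lower at 7 than at 3 dpi. *Csf1* and *Osm* were also counted lower at 7 dpi over the gated cells, but *Csf1*, the macrophage growth factor, was at 34.4, 40.1, 66.6 and 29.6 CPM there and at 0, 9.64, 8.87 and 4.498 CPM over the NK-led cells. Of the 12 cytokine genes, 2, 0 and 0 of 8, 10 and 9 compared genes were at least 2-fold higher in the later library and 0, 0 and 3 at least 2-fold lower (median log2 ratio 0.26, -0.18 and -0.61), and in NK-led cells 1, 0 and 0 higher and 1, 0 and 0 lower of 6, 9 and 8. The death receptor ligands *Fasl*, *Tnfsf10* (TRAIL) and *Tnf* were at 42.1, 76.8, 45.95 and 30.7, at 13.4, 9.45, 16.4 and 9.85 and at 40.1, 55.2, 76.6 and 50.4 CPM, and of the 4 genes of this list 0, 0 and 0 of 2, 3 and 3 compared genes were at least 2-fold higher in the later library and 0, 0 and 0 at least 2-fold lower (median log2 ratio 0.66, 0.47 and -0.60). *Fasl* in NK-led cells was 2.11-fold (1.28 to 3.71) higher at 1 dpi than in Uninjured, and *Tnfsf10* and *Tnf* were 2.14-fold (1.28 to 3.72) and 2.25-fold (1.75 to 2.91) higher at 3 than at 1 dpi.

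The study names 8 ligand genes for the signals of NK cells, and these were examined as a list chosen on the same samples, which is no independent evidence. *Mif*, a cytokine that holds macrophages at the site, was at 206, 331, 264 and 603 CPM and 2.28-fold (2.09 to 2.49) higher at 7 than at 3 dpi. In NK-led cells alone *Mif* was at 233, 308, 180.0 and 313 CPM and 1.74-fold (1.49 to 2.03) higher at 7 dpi, below 2-fold. *Sema4d*, a semaphorin, was at 49.7, 68.1, 56.7 and 22.4 CPM and 2.53-fold (1.801 to 3.62) lower at 7 than at 3 dpi. The integrin chains *Itgb2* and *Itga4* were at 281, 264, 166 and 128 and 331, 354, 223 and 148 CPM, and *Pdgfb* at 42.1, 58.6, 46.2 and 36.1 CPM. Of the list, 0, 0 and 1 of 8, 8 and 8 compared genes were at least 2-fold higher in the later library and 1, 0 and 1 at least 2-fold lower (median log2 ratio 0.28, -0.33 and -0.41), and in NK-led cells 0, 0 and 0 higher and 1, 0 and 1 lower of 8, 8 and 8.

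The lectin-like receptors of the NK gene complex, which bind class I MHC and related molecules, are a family by which NK cells sense their targets. Of the 21 genes, 0, 0 and 0 of 15, 17 and 16 compared genes were at least 2-fold higher in the later library and 1, 0 and 2 at least 2-fold lower (median log2 ratio -0.00, -0.24 and -0.37), where 11.4%, 6.07% and 4.58% of all compared genes were higher and 3.79%, 1.19% and 8.78% lower, shares that amount to few genes in a list of this size. In NK-led cells, 1, 0 and 0 of 15, 17 and 16 compared genes were counted, all of them lower (median log2 ratio -0.02, -0.06 and -0.00). *Klrk1*, the activating receptor NKG2D, was at 529, 603, 431 and 373 CPM, and *Klrd1*, the CD94 chain shared by activating and inhibitory pairs, at the levels given above. *Klrc1*, the inhibitory partner NKG2A, was at 189, 185, 143 and 122 CPM. Of the Ly49 receptors, *Klra3* was at 210.3, 90.8, 76.9 and 113 CPM and 2.32-fold (1.83 to 2.92) lower at 1 dpi than in Uninjured. *Klra8*, the activating receptor Ly49H, was at 245, 314, 385 and 169 CPM and 2.28-fold (2.01 to 2.58) lower at 7 than at 3 dpi, but 1.76-fold (1.55 to 2.01) lower over the NK-led cells. *Klra4* (Ly49D) was at 352, 324, 522 and 244 CPM, 2.14-fold (1.93 to 2.38) lower at 7 dpi, and 1.64-fold (1.47 to 1.84) lower over the NK-led cells. After thinning to 1000 UMIs, 66.99%, 67.04%, 68.98% and 63.4% of the NK-led cells had a UMI of at least 1 Klra gene. Reads of Klra, Klrc and granzyme genes, which have near-identical copies, are uncertain between the copies.

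Adaptors and kinases carry the signals of these receptors. *Tyrobp* (DAP12), the adaptor of activating Ly49 receptors, was at 2357, 1282, 1059 and 1440.2 CPM and *Fcer1g*, the adaptor of NKp46 and CD16, at 1877, 965, 1006 and 1019.8 CPM. *Lat*, an adaptor of lymphocyte antigen receptors, was at 49.7, 24.6, 11.6 and 28.5 CPM, 2.13-fold (1.43 to 3.204) lower at 3 than at 1 dpi and 2.46-fold (1.61 to 3.78) higher at 7 than at 3 dpi. *Syk*, a kinase bound by both adaptors, was at 38.2, 78.3, 77.7 and 35.03 CPM. Of the 12 genes, 2, 0 and 1 of 10, 12 and 12 compared genes were at least 2-fold higher in the later library and 0, 1 and 1 at least 2-fold lower (median log2 ratio -0.02, -0.18 and -0.15), and in NK-led cells 0, 0 and 1 higher and 1, 0 and 0 lower of 8, 12 and 12. Of the 13 other activating and checkpoint receptors, 1, 0 and 0 of 5, 8 and 7 compared genes were at least 2-fold higher in the later library and 0, 1 and 0 at least 2-fold lower (median log2 ratio 0.36, -0.19 and -0.30). The counted gene there was *Lilrb4a*, an inhibitory receptor of myeloid and NK cells, at 22.9, 92.6, 43.3 and 35.03 CPM. In NK-led cells 1, 0 and 0 of 4, 8 and 7 compared genes of this list were higher and 0, 0 and 0 lower. *Lilrb4a* was thus still counted at 1 dpi but no longer at 3 dpi. The checkpoint genes *Pdcd1*, *Tigit* and *Lag3* were at 0, 0, 4.2996 and 0.547, at 3.82, 2.27, 3.49 and 0.547 and at 7.65, 3.403, 4.57 and 7.66 CPM, close to the counting floor.

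The cytokine receptor genes past 2-fold were higher at 1 dpi than in Uninjured or lower at 7 than at 3 dpi. *Il2rb*, the chain through which interleukin 15 keeps NK cells alive, was at 573, 1035, 812 and 390.3 CPM and 2.08-fold (1.92 to 2.26) lower at 7 than at 3 dpi. *Il18r1*, a receptor chain for interleukin 18, was at 111, 225, 186 and 90.3 CPM, 2.03-fold (1.55 to 2.701) higher at 1 dpi than in Uninjured and 2.06-fold (1.74 to 2.46) lower at 7 dpi. *Il10ra*, the interleukin 10 receptor, was at 34.4, 106, 108 and 24.6 CPM, 3.07-fold (1.905 to 5.25) higher at 1 dpi and 4.396-fold (3.23 to 6.12) lower at 7 dpi. In each of these genes the 1 and 3 dpi libraries lay above the other two. The whole list summed to 2565, 3619, 3039 and 1764 CPM in NK cells and to 1402, 2277, 2341 and 1072 CPM in CD8 T cells. The higher sums at 1 and 3 dpi were thus found in CD8 T cells too. Of the 20 receptor, kinase and STAT genes, 2, 0 and 0 of 12, 20 and 19 compared genes were at least 2-fold higher in the later library and 0, 0 and 5 at least 2-fold lower (median log2 ratio 0.44, -0.16 and -0.67), and in NK-led cells 2, 1 and 0 higher and 0, 0 and 3 lower of 11, 19 and 14. *Il2rb* in NK-led cells was 1.597-fold (1.46 to 1.74) lower at 7 dpi, below 2-fold, and *Il10ra* 3.03-fold (2.18 to 4.33) lower. *Il18r1* was no longer counted lower at 7 dpi over the NK-led cells, but was still counted higher at 1 dpi.

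Among transcription factors of NK development, 6 of 15 were at least 2-fold higher at 1 dpi than in Uninjured over the gated cells, and 2 of 12 over the NK-led cells, against 11% of all genes compared there. *Eomes* was at 153, 321, 313 and 133 CPM over the gated and 206, 407, 430.1 and 225 CPM over the NK-led cells, 2.102-fold (1.67 to 2.68) higher at 1 dpi than in Uninjured and 2.35-fold (2.05 to 2.71) lower at 7 than at 3 dpi. In NK-led cells these steps were 1.97-fold (1.56 to 2.53) and 1.91-fold (1.64 to 2.24), just under 2-fold. *Tbx21* (T-bet) was at 139.5, 115, 128 and 70.1 CPM, with no step of 2-fold or more. *Tcf7* (TCF-1), a factor of early NK cells, was at 24.8, 99.1, 105 and 52.5 CPM and 3.99-fold (2.29 to 7.59) higher at 1 dpi than in Uninjured. *Gata3* was at 34.4, 96.05, 86.8 and 48.7 CPM and 2.79-fold (1.73 to 4.79) higher at 1 dpi. *Tox* was at 21.03, 42.4, 50.3 and 15.9 CPM, 2.01-fold (1.08 to 4.15) higher at 1 dpi and 3.17-fold (2.13 to 4.86) lower at 7 dpi. *Bach2* and *Ikzf2* were the other factors counted higher at 1 dpi, and *Prdm1* the other counted lower at 7 dpi. Of the 15 factors, 6, 0 and 0 of 15, 15 and 15 compared genes were at least 2-fold higher in the later library and 0, 0 and 3 at least 2-fold lower (median log2 ratio 0.57, -0.09 and -0.86), and in NK-led cells 2, 0 and 0 higher and 0, 0 and 1 lower of 12, 15 and 15. Over the NK-led cells *Gata3* and *Tcf7* remained counted at 1 dpi and *Tox* at 7 dpi. The 15 factors summed to 3227, 3977, 3222 and 1955 CPM in NK cells and to 1348, 2481, 2566 and 1247 CPM in CD8 T cells. The sum was thus higher at 1 dpi than in Uninjured in both kinds of cell. After thinning, the share of NK cells with an *Eomes* UMI was 14.7, 30.05, 29.05 and 17.1%, and 37.5, 70.5, 63.2 and 32.5% before it, while in mesenchymal cells it was 0.0385, 0.0448, 0 and 0.0794% after thinning.

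Of the compared genes of CD27 high, less mature NK cells, 5 of 9 were at least 2-fold higher at 1 dpi than in Uninjured, and of those of CD11b high, mature cells 1 of 8 was at least 2-fold lower. The minimum of expected UMIs bears on these counts, and without it 6 of all 10 genes of the first list were at least 2-fold higher (with the 0 UMIs of *Kit* in Uninjured set to 3) and 4 of all 11 genes of the second at least 2-fold lower. The first list summed to 1705, 2549, 2257 and 2361 CPM in NK cells. In CD8 T cells it summed to 1819, 2873, 2782 and 1741 CPM, and in CD4 T cells to 1730, 2827, 2345 and 1591 CPM. The higher sum at 1 dpi than in Uninjured was thus not particular to NK cells, and a shift in NK maturation was not tested. *Emb* (embigin, a partner of lactate transporters) was at 99.4, 648, 439.6 and 375 CPM and 6.52-fold (4.95 to 8.76) higher at 1 dpi, or 7.12-fold (5.22 to 9.96) over the NK-led cells. Mesenchymal cells also contained *Emb*, with a UMI in 1.62, 1.702, 11.4 and 14.4% of cells after thinning against 9.48, 36.7, 35.4 and 26.7% of NK cells. *Cd27* itself was at 53.5, 110.4, 85.5 and 54.2 CPM, 2.06-fold (1.398 to 3.16) higher at 1 dpi and 1.77-fold (1.195 to 2.72) over the NK-led cells. *Thy1* was at 119, 325, 293 and 274 CPM and 2.74-fold (2.12 to 3.61) higher at 1 dpi. *Kit*, the stem cell factor receptor, was at 0, 24.6, 18.005 and 6.57 CPM. Of the 10 genes, 5, 0 and 0 of 9, 10 and 10 compared genes were at least 2-fold higher in the later library and 0, 0 and 1 at least 2-fold lower (median log2 ratio 1.04, -0.26 and -0.08), and in NK-led cells 4, 0 and 1 higher and 0, 0 and 0 lower of 9, 10 and 9.

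In the mature list, *Cma1*, which encodes the protease mast cell chymase and is also a gene of mature NK cells, was at 161, 32.1, 25.8 and 44.3 CPM and 4.995-fold (3.65 to 6.83) lower at 1 dpi than in Uninjured. *Cx3cr1*, the fractalkine receptor, was at 70.7, 9.83, 8.06 and 12.6 CPM, *Klrg1* at 78.4, 26.1, 30.9 and 35.03 CPM and *S1pr5*, the receptor by which mature NK cells leave tissue, at 63.1, 29.1, 14.8 and 18.6 CPM. Their levels at 1 dpi were 7.19-fold (4.24 to 12.4), 3.004-fold (1.99 to 4.48) and 2.17-fold (1.395 to 3.297) lower than in Uninjured, and over the NK-led cells 14.7-fold, 3.21-fold and 2.28-fold lower. These 3 genes were left out of the list's count because they were low in the larger 1 dpi library, which brought the number of UMIs expected in Uninjured below 20. *Klf2*, a factor of quiescent lymphocytes, was at 2244, 1174, 734 and 1249.7 CPM over the gated cells and 2546, 1223, 842 and 1705 CPM over the NK-led cells, where it was 2.08-fold (1.93 to 2.25) lower at 1 dpi and 2.03-fold (1.89 to 2.17) higher at 7 than at 3 dpi. *Itgam* (CD11b) was at 109, 123, 82.5 and 48.2 CPM, and *Irf8* and *Zeb2* at 753, 835, 644 and 346 and 296, 257, 186 and 200.3 CPM. *Itgam* therefore did not follow *Cma1*. Of the 11 genes, 0, 0 and 0 of 8, 11 and 10 compared genes were at least 2-fold higher in the later library and 1, 1 and 2 at least 2-fold lower (median log2 ratio 0.16, -0.47 and -0.22), and in NK-led cells 0, 0 and 1 higher and 2, 0 and 0 lower of 8, 10 and 10.

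Genes of group 1 innate lymphoid cells of tissue were few in UMIs. *Il7r*, the interleukin 7 receptor, was at 5.73, 48.8, 49.4 and 13.1 CPM and 8.51-fold (2.85 to 41.8) higher at 1 dpi than in Uninjured, where it had 3 UMIs. Over the NK-led cells *Il7r* had too few UMIs for this comparison. *Rora* was at 63.1, 65.04, 60.5 and 33.9 CPM over the gated cells but at 24.4, 62.7, 54.5 and 30.4 CPM over the NK-led cells, where it was 2.57-fold (1.31 to 5.75) higher at 1 dpi than in Uninjured. *Cxcr6* was at 11.5, 9.08, 5.91 and 4.93 CPM and *Inpp4b* at 3.82, 16.3, 22.8 and 7.66 CPM. Of the 11 genes, 1, 2 and 0 of 3, 8 and 8 compared genes were at least 2-fold higher in the later library and 0, 0 and 2 at least 2-fold lower (median log2 ratio 0.04, 0.64 and -0.28), and over the NK-led cells 1, 2 and 1 higher and 0, 0 and 1 lower of 1, 8 and 8. *Tmem176a* and *Tmem176b*, the genes higher at 3 dpi over the gated cells, had log2 ratios of 1.01 and 1.01 over the gated cells but -0.07 and -0.01 over the NK-led cells, so that the difference was near 0 when the other-lineage clusters were left out.

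Several receptors that guide lymphocytes were high at 1 and 3 dpi. The 23 genes of this list summed to 3209, 4451, 3834 and 2376 CPM in NK cells. In CD8 T cells they summed to 2688, 3949, 3668 and 2217 CPM, and in CD4 T cells to 2707, 4793, 3979 and 2454 CPM. The higher sums at 1 and 3 dpi were thus not particular to NK cells. *Cxcr4*, the receptor of CXCL12, was at 99.4, 371, 219 and 76.6 CPM, 3.73-fold (2.82 to 5.03) higher at 1 dpi than in Uninjured and 2.86-fold (2.39 to 3.44) lower at 7 than at 3 dpi. *Ccr2*, the receptor for inflammatory monocyte chemokines, was at 149, 377, 429 and 183 CPM, 2.53-fold (2.01 to 3.23) higher at 1 dpi and 2.35-fold (2.08 to 2.65) lower at 7 dpi. *Cd44*, the hyaluronan receptor, was at 105, 243, 297 and 166 CPM and 2.31-fold (1.75 to 3.104) higher at 1 dpi. Of the 23 genes, 5, 1 and 0 of 16, 21 and 20 compared genes were at least 2-fold higher in the later library and 0, 0 and 5 at least 2-fold lower (median log2 ratio 0.65, -0.29 and -0.60), and in NK-led cells 6, 2 and 0 higher and 0, 0 and 3 lower of 16, 20 and 19. *Ccr7*, the receptor for entry to lymph nodes, was at 3.82, 3.78, 34.4 and 4.38 CPM, 9.096-fold (4.79 to 19.4) higher at 3 than at 1 dpi and 7.85-fold (3.87 to 18.6) lower at 7 dpi. Its 128 UMIs at 3 dpi came from 12 cells, 49 of them from 1 cell. Of these UMIs, 118 were in NK-led cells with no *Eomes* UMI but a gene of tissue innate lymphoid cells, a group described below.

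Cell cycle genes had 16 of 23 compared genes at least 2-fold higher at 3 dpi than at 1 dpi, against 6.07% of all compared genes. *Mki67* was at 38.2, 54.1, 376 and 137 CPM over the gated and 54.2, 13.9, 463 and 149.6 CPM over the NK-led cells, 6.95-fold (5.85 to 8.31) higher at 3 than at 1 dpi and 2.75-fold (2.398 to 3.15) lower at 7 than at 3 dpi. *Top2a*, the topoisomerase that untangles chromosomes, was at 51.6, 49.5, 315 and 136 CPM and 6.36-fold (5.304 to 7.68) higher at 3 dpi. The helicase gene *Mcm6*, which acts earlier, at the start of DNA replication, was at 30.6, 116, 105 and 43.2 CPM and was 3.78-fold (2.29 to 6.704) higher at 1 dpi than in Uninjured. Of the 23 genes, 6, 16 and 0 of 12, 23 and 23 compared genes were at least 2-fold higher in the later library and 0, 0 and 12 at least 2-fold lower (median log2 ratio 1.02, 1.94 and -1.05). The genes higher at 1 dpi were *Pcna* and the helicase genes *Mcm2*, *Mcm3*, *Mcm4*, *Mcm5* and *Mcm6*, while those higher at 3 dpi held genes of mitosis such as *Ccnb1*, *Cdk1* and *Birc5* and also genes of DNA synthesis (*Tk1*, *Rrm2*, *Tyms* and *Pclaf*). In NK-led cells 2 genes (*Mcm2* and *Mcm6*) were higher and 2 (*Stmn1* and *Hmgb2*) lower at 1 dpi, and 16 of 23 were again higher at 3 dpi. After thinning to 1000 UMIs, a UMI of *Mki67* or *Top2a* was present in 3.45% (0.947 to 8.59), 5.17% (3.23 to 7.798), 20.6% (17.6 to 23.9) and 9.85% (7.27 to 12.95) of the NK cells. For *Mki67* alone the share was 0.862, 1.48, 14.98 and 6.35% in NK cells and 0.904, 1.07, 6.46 and 6.799% in mesenchymal cells, which divide as well.

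Interferon-stimulated genes differed in both directions. *Bst2* (tetherin) was at 126, 307, 133 and 99.6 CPM, 2.43-fold (1.89 to 3.18) higher at 1 dpi and 2.304-fold (2.06 to 2.58) lower at 3 dpi. *Isg15*, a ubiquitin-like protein, was at 333, 175, 197 and 205 CPM over the gated cells, and over the NK-led cells it was 2.92-fold (2.37 to 3.59) lower at 1 dpi than in Uninjured. Members of the list thus differed in opposite directions at 1 dpi. Of its 21 genes, 2, 0 and 0 of 13, 21 and 19 compared genes were at least 2-fold higher in the later library and 0, 2 and 4 at least 2-fold lower (median log2 ratio 0.20, -0.33 and -0.53), and in NK-led cells 2, 0 and 0 higher and 2, 0 and 3 lower of 8, 21 and 17.

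Immediate early genes, which also respond to the dissociation of tissue, summed to 23698, 18401, 13821 and 14666 CPM. *Fos* was at 5551, 2749.9, 1586 and 2894 CPM and 2.02-fold (1.93 to 2.11) lower at 1 dpi than in Uninjured, but 1.597-fold (1.504 to 1.69) lower over the NK-led cells, where it was 2.19-fold (2.08 to 2.299) higher at 7 than at 3 dpi. *Junb* was at 3097, 2551, 2141 and 1784 CPM. Of these 15 genes, 0, 0 and 0 of 15, 15 and 15 compared genes were at least 2-fold higher in the later library and 3, 1 and 0 at least 2-fold lower (median log2 ratio -0.08, -0.25 and -0.20), and in NK-led cells 0, 0 and 1 higher and 1, 1 and 0 lower of 15, 15 and 15. Genes of glycolysis and glucose uptake summed to 1961, 2455, 2726 and 3095 CPM over the gated and 2009.5, 2270.1, 2185 and 2327 CPM over the NK-led cells, and of the 11 genes, 2, 0 and 1 of 9, 11 and 11 compared genes were at least 2-fold higher in the later library and 0, 0 and 0 at least 2-fold lower (median log2 ratio 0.51, 0.15 and 0.16), and over the NK-led cells 0, 0 and 0 higher and 0, 0 and 1 lower of 8, 10 and 9. *Hk2*, the first enzyme of the pathway, was at 19.1, 43.9, 36.01 and 38.9 CPM over the gated but 0, 13.9, 14.4 and 12.4 CPM over the NK-led cells. Genes of growth, with *Myc* and the uptake of iron and amino acids, summed to 1256, 1869, 1496 and 1253 CPM, and of the 8 genes, 2, 0 and 0 of 7, 8 and 8 compared genes were at least 2-fold higher in the later library and 0, 0 and 1 at least 2-fold lower (median log2 ratio 0.73, -0.42 and -0.28), and in NK-led cells 3, 0 and 0 higher and 0, 2 and 0 lower of 7, 8 and 7. *Tfrc*, the transferrin receptor, was at 11.5, 63.9, 37.1 and 18.6 CPM and 5.57-fold (2.51 to 15.4) higher at 1 dpi than in Uninjured, and *Odc1*, the first enzyme of polyamine synthesis, at 82.2, 172, 135 and 124 CPM and 2.09-fold (1.53 to 2.93) higher.

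**Figure D4:**
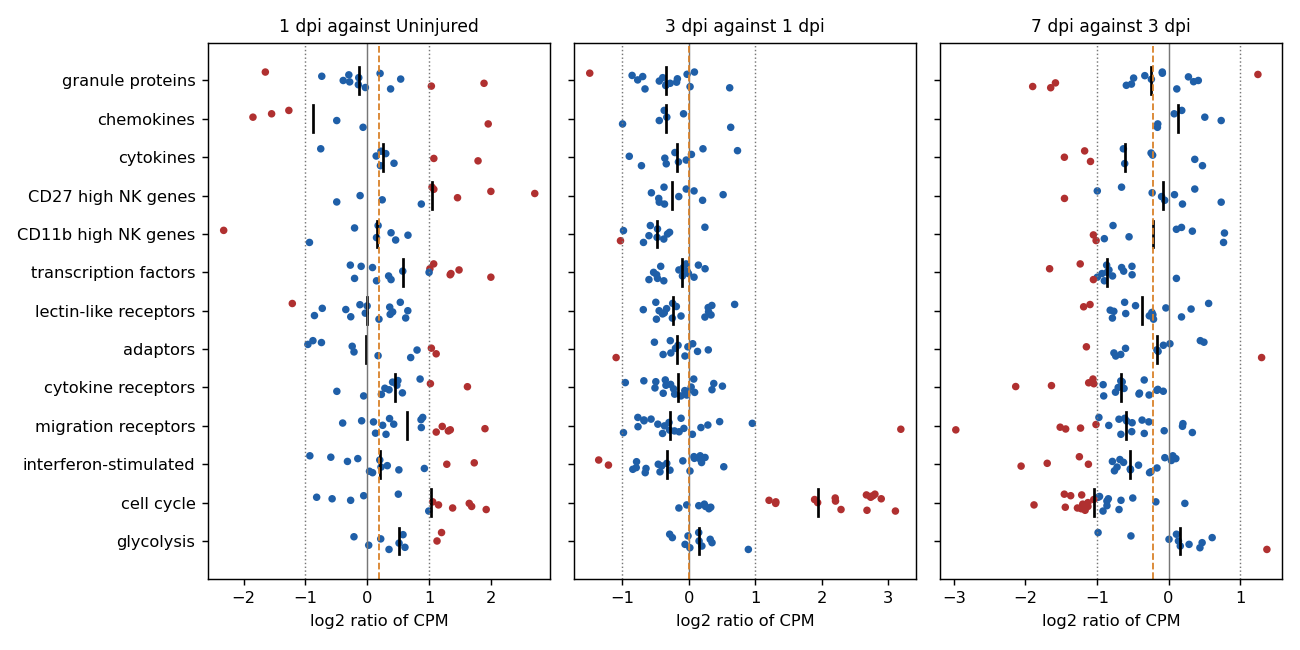
Log2 CPM ratio between successive libraries over the gated cells for the compared genes of 13 lists (1 dot per gene, red at 2-fold or more), with a black bar for the list median, an orange dashed line for the median of all compared genes and dotted lines at 1 and -1. The cell cycle list has its median at 1.94 for 3 dpi against 1 dpi, and the list of less mature NK cells at 1.04 for 1 dpi against Uninjured.

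Genes with the largest ratios, among those with a level in NK cells at least that of all other cells, were partly genes of single cells. Between Uninjured and 1 dpi the 10 highest were *Cxcl13*, *Acta2*, *Cdk6*, *Dtx3l*, *Limd1*, *Emb*, *Pim2*, *Myb*, *P2ry10* and *Tfrc*. *Cxcl13*, a B cell attractant, was at 0 UMIs in Uninjured and at least 19.5-fold higher at 1 dpi, but 218 of its UMIs (73.6%) were in 1 cell. *Acta2* had 271 of its 289 UMIs in 1 cell. *Cdk6*, a kinase of entry to the cell cycle, was 9.298-fold higher, *Pim2*, a survival kinase, 6.45-fold and *Myb*, a factor of proliferating precursors, 6.19-fold. Among the 10 lowest were *Pmp22*, *Apod*, *Hist1h2bc*, *Cma1*, *Ccl5*, *Cd9*, *Hist1h2ae*, *Secisbp2l* and *Gzma*. The myelin gene *Pmp22* had 87.6% of its Uninjured UMIs in 1 cell and *Apod* 87.03%. For *Hist1h2bc*, *Cd9*, *Hist1h2ae* and *Secisbp2l* the share in 1 cell was 41.2, 39.1, 40.7 and 41.5%, against 7.14, 4.31 and 4.76% for *Cma1*, *Ccl5* and *Gzma*.

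Between 1 and 3 dpi the 10 highest were *Ttn*, *Acta1*, *Tnnc2*, *Myog*, *Actc1*, *Myh3*, *Mylpf*, *Neb*, *Shcbp1* and *Mxd3*, of which the first 8 are muscle genes with 62.5% to 99.3% of their UMIs at 3 dpi in 1 cell. Over the NK-led cells the 10 highest were the mitosis and histone genes *Hmmr*, *Birc5*, *Ccnb2*, *Kif4*, *Ube2c*, *Cenpf*, *Shcbp1*, *Nusap1*, *Cdkn3* and *Hist1h2ab*, and *Birc5*, a protein of chromosome segregation, was 109.9-fold higher at 3 dpi. The 10 lowest over the gated cells were *Car1*, *Cxcl13*, *Pdcd1lg2*, *Scfd2*, *Pus3*, *Aven*, *Pim2*, *2900060B14Rik*, *Gzmb* and *Ifi214*, and *Car1* had 99.1% of its UMIs at 1 dpi in 1 cell. *Pim2*, among the highest at 1 dpi, was 2.83-fold lower at 3 dpi.

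Between 3 and 7 dpi the 10 highest were *Igkc*, *Taf10*, *Dusp12*, *Gm15417*, *Insyn1*, *Smim27*, *Lat*, *Slc35d1*, *Gpsm1* and *Mtln*. *Igkc*, an antibody light chain gene, was 15.9-fold higher with 56.4% of its UMIs in 1 cell, but over the NK-led cells its log2 ratio was -1.59, in the opposite direction. *Taf10*, a subunit of the general transcription factor TFIID, was 2.78-fold higher. The 10 lowest were *Gm42031*, *4833403J16Rik*, *Mymx*, *Bex1*, *Gm8251*, *Myog*, *Neb*, *Ttn*, *Ccr7* and *Nek2*, and *Mymx* and *Bex1* had 97.1% and 94.3% of their UMIs at 3 dpi in 1 cell. Over the NK-led cells the list of the 10 highest held *Taf10*, *Lat* and *Hopx*, and that of the 10 lowest held *Ccr7*, *Sgo2a*, *Dlgap5* and *Usp18*, with mitosis genes in place of the muscle genes.

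NK cells were set against CD8 T cells of the same library, chosen as lymphocytes that share the killing machinery, whose gate required a CD3 UMI and no UMI of *Ncr1* or *Klrb1c*. The gates did not use the genes named here, but each gate selects a lineage, so the comparison describes 2 chosen groups of cells. In Uninjured, 9.38% of 3241 compared genes were at least 2-fold higher in NK cells and 3.24% at least 2-fold lower. The shares were 5.64% and 2.72% of 6949 genes at 1 dpi, 4.7% and 1.78% of 6231 at 3 dpi, and 5.78% and 1.03% of 3113 at 7 dpi. Of the 2713 genes compared in all 4 libraries, 46 (1.696%) were at least 2-fold higher in NK cells in every one and 10 (0.369%) at least 2-fold lower. The mesenchymal genes summed to 6834, 3203, 5454 and 11580.4 CPM in the CD8 T cells, so that these too held RNA of other lineages.

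Of the lectin-like receptors, 12 of 13 genes compared in every library were at least 2-fold higher in NK cells in all 4, where 0 UMIs in CD8 T cells were set to 3. Genes that CD8 T cells mostly lack reached the minimum of expected UMIs through the NK cells in which they are high, and the CD8 gate left out cells with NK receptor UMIs, so these counts describe the chosen groups and are no support for a difference. In the granule list the same held for 4 of 11 genes (*Gzma*, *Prf1*, *Serpinb9* and *Serpinb6b*), in the chemokine list for 3 of 5 (*Ccl3*, *Ccl4* and *Xcl1*), in the transcription factor list for 2 of 10 (*Eomes* and *Irf8*) and in the adaptor list for 2 of 8 (*Tyrobp* and *Fcer1g*). In the homing list it held for 2 of 13 genes, among them *Ccr2*, and among cytokine receptors for 1 of 9 (*Il2rb*). None of the 9 cell cycle, 9 interferon-stimulated, 15 immediate early, 8 glycolysis and 5 growth genes compared in every library was at least 2-fold higher in NK cells in all 4.

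The ratio of NK to CD8 T cells was highest in Uninjured for *Gzma*, *Prf1*, *Ccl3*, *Ccl5* and *Eomes*. *Gzma* was at 375, 199, 215 and 569 CPM in CD8 T cells, and the ratio of NK to CD8 T cells was 21.5, 12.9, 12.7 and 4.52. For *Prf1* the ratio was 21.8, 8.86, 5.02 and 10.6, and for *Ccl3* 33.1, 6.16, 8.71 and 9.297. *Ccl5* was at 2818, 2966, 4960.2 and 2806 CPM in CD8 T cells, and its ratio was 5.13, 1.35, 0.646 and 1.62, so that at 3 dpi CD8 T cells had the higher level. *Eomes* had a ratio of 17.04, 3.998, 2.902 and 2.67. Its NK level was lower in Uninjured than at 1 and 3 dpi, so the high ratio in Uninjured came with a low level in CD8 T cells. Ratios of *Tyrobp*, which CD8 T cells mostly lack, were 27.6, 17.1, 12.8 and 15.8, and those of *Irf8* were 126, 16.9, 10.6 and 22.8. The Uninjured ratios of *Eomes* and *Irf8* rested on few UMIs in CD8 T cells and are imprecise. *Mki67* had a ratio of 0.433, 1.02, 1.198 and 1.62. *Il7r*, a gene of resting T cells, was at 335, 488, 342 and 143 CPM in CD8 T cells, above its level in NK cells in every library.

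**Figure D5:**
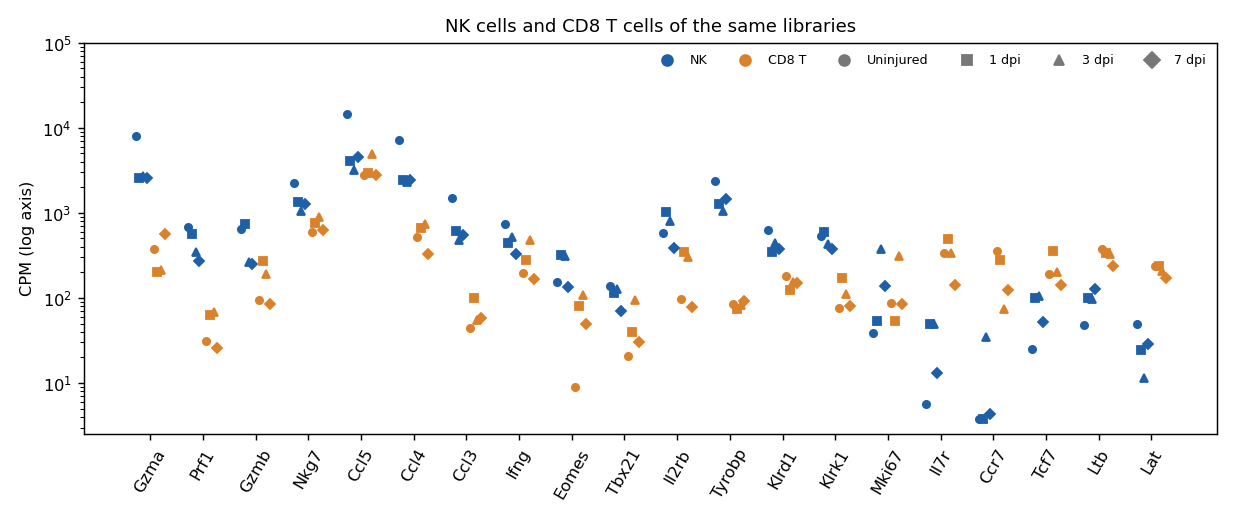
Levels in CPM (log scale) of 20 genes in NK cells (blue) and CD8 T cells (orange) of the same library, with the marker shape giving the library. Gzma, Prf1, Eomes, Tyrobp and the Klr genes plotted are higher in NK cells in all 4 libraries, and Il7r is higher in CD8 T cells in all 4.

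NK cells also differed among themselves. Among 604 genes with a mean of at least 0.1 UMI per cell in every library after thinning to 1000 UMIs and a level at or above that of other cells, the median ratio of variance to mean was 1.08, 1.08, 1.08 and 1.07. The 10 most variable genes by the median over the libraries were *Gm42418*, *Ccl4*, *Malat1*, *Ccl5*, *Gzma*, *Cxcl10*, *Xcl1*, *Tmsb4x*, *Junb* and *Ccl3*, of which 5 are chemokines. *Ccl4* had a ratio of 15.7, 6.38, 6.16 and 8.78, *Ccl5* of 7.78, 4.97, 5.62 and 15.1 and *Gzma* of 5.61, 5.003, 4.37 and 7.63. The mean of *Gzma* per thinned cell was 10.6, 3.44, 3.38 and 3.996 UMIs. In the NK-led cells it was 0 in 5.83, 26.2, 22.99 and 24.02% of cells and reached 28, 23, 22 and 29 UMIs in a single cell. *Gm42418* overlaps ribosomal RNA repeats, and its counts may hold ribosomal RNA.

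The 9 clusters of NK-led cells were distributed unevenly over the libraries, and their leading genes and sizes describe how the clusters came out, not shares of cell states. The first (cluster 0, 142 cells), led by *Cma1*, *Ccl5*, *Gzma*, *Klrg1*, *S1pr5*, *Cx3cr1* and *Prf1*, held 63, 10, 10 and 59 cells, or 52.5% of the gated cells of Uninjured. Cluster 1 (234 cells), led by *Ctla2a*, *Cd2*, *Hopx*, *Ltb* and *Xcl1*, held 9, 1, 33 and 191 cells, or 40.04% of those of 7 dpi. Cluster 2 (302 cells), with *Klra8*, *Itgam* and *S1pr5* among its leading genes, held 13, 104, 176 and 9 cells. The largest clusters were thus each mostly of 1 or 2 libraries, and a cluster mostly of 1 library may be that library and not a state. Cluster 3 (3, 50, 21 and 2 cells) was led by *Tnfrsf9*, the costimulatory receptor 4-1BB, *Gzmb*, *Irf8* and *Serpinb9*. Cluster 4 (6, 86, 62 and 10 cells) was led by the DNA replication genes *Mcm3*, *Mcm5*, *Mcm2*, *Mcm6* and *Mcm7*, and cluster 5 (3, 0, 90 and 18 cells) by *Mki67*, *Top2a*, *Birc5* and histone genes. Cluster 7 (8, 13, 41 and 36 cells) was led by the interferon-stimulated genes *Ifit1*, *Rsad2*, *Ifit3* and *Isg15*, and cluster 11 (0, 57, 92 and 5 cells) by *Cxcr4*, *Nr4a2*, *Tnfaip3* and *Nr4a3*, genes of recent activation.

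Cluster 6 (2, 41, 53 and 17 cells) stood apart from the others by its low *Eomes*, *Gzma* and high *Il7r*. It was led by *Il7r*, *Gpr183*, *Rora*, *Cxcr6* and *Inpp4b*, genes of innate lymphoid cells of tissue. *Ccr7*, the receptor for entry to lymph nodes, and *Tcrg-C4*, a gene of gamma delta T cells, were also among its leading genes. Its cells had 62.8 CPM of *Eomes* and 336 CPM of *Gzma*, against 234 and 12805 CPM in cluster 0. *Trac*, the T cell receptor alpha constant gene, was at 2.24 CPM, and *Trdc*, the delta constant gene, at 38.1 CPM.

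To follow this without clusters, the NK-led cells were split into those with an *Eomes* UMI (41, 265, 379 and 131 cells, 38.3%, 73.2%, 65.6% and 37.8%) and those with none but a UMI of *Cd200r1*, *Itga1*, *Zfp683* or *Il7r* (3, 30, 48 and 23 cells). Uninjured muscle had only 3 cells of the second kind, and values are given for 1, 3 and 7 dpi, for genes that did not define the split. *Gzma* was at 3285, 4086 and 4374 CPM in cells with *Eomes* and at 446, 1076 and 513 CPM in the second group. *Prf1* was at 723, 476 and 508 and 338, 207 and 105 CPM, and *Klra4* at 454, 807 and 557 and 0, 134 and 0 CPM. Granule genes and this Ly49 receptor were thus higher in the cells with *Eomes* in all 3 libraries. *Cxcr6*, a receptor of tissue-resident lymphocytes, was at 0.6998, 2.23 and 0 CPM in cells with *Eomes* and 108, 78.4 and 52.6 CPM in the second group. *Rora* was at 39.2, 26.2 and 10.9 and 352, 347 and 118 CPM, and *Tcrg-C4* at 1.3995, 0 and 0 and 137, 61.6 and 65.8 CPM. These 3 genes were higher in the second group in all 3 libraries. The median depth was 4699, 3855 and 2335 UMIs in cells with *Eomes* and 4258, 3271.5 and 2891 in the second group, and a cell without an *Eomes* UMI may still express the gene.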

How the data were processed

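The authors counted UMIs with Cell Ranger 5.0.0, the submitters' processing notes also name mm10 and Seurat 3.1.1, and the deposited values are whole-number UMI counts per gene and cell, without scaling. Whether the counts precede the down-sampling of reads named in the methods is not given in the sources used here. Members and gene lists were chosen with earlier results of these data known. Gene symbols came from the deposited feature tables, and positions from GENCODE M21 for 32235 of 32285 features. The 4 libraries held 12031, 11722, 15160 and 23752 barcodes, and all of those with at most 10% mitochondrial UMIs were used, summing to 112053307, 89080937, 114239881 and 127424934 UMIs.

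UMIs were summed over the NK cells of a library and divided by all UMIs of these cells (CPM), with exact Poisson intervals. Ratios have exact conditional binomial intervals, shares Clopper-Pearson intervals and differences of shares square-and-add intervals, all at 95%. Where a library had 0 UMIs of a gene, a floor of 3 UMIs over the group took their place and the fold is a lower bound under that floor only. No p-value was computed. Intervals were run on simulated counts drawn independently from the Poisson model that they assume. Coverage was thus set by that design, and the simulation says nothing of variation between cells, which the intervals do not cover. Cells were clustered in scanpy 1.11.5 and igraph 0.11.9 (2000 variable genes, 30 components, 15 neighbours, resolution 1, 5 iterations, seed 0) without batch adjustment. The main values kept doublets, and 1 alternative removed the 7.5% of cells with the highest Scrublet scores and cells beyond 2 SD of log10 UMIs or genes. Other tools were Python 3.11.15, numpy 2.4.6, scipy 1.17.1, pandas 2.3.3, matplotlib 3.10.9, R 4.3.3 and edgeR 4.0.16 (TMM factors only).

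Named genes were the 5 markers, genes of the lists, and for each comparison the 10 compared genes of largest fold up and down whose NK level in the higher library was at least that of all other cells, leaving out the genes of the rule and mitochondrial and ribosomal protein genes. The 10 most variable genes and leading genes of clusters were added. Mx1 of the interferon list was not among the features, and a few listed genes are not reported here. Promoter windows came from RefSeq tables for GRCm38. Alternatives were another threshold of the rule, no *Ptprc* condition, a 5% mitochondrial limit, leaving out cells with 3 or more UMIs of another lineage, 3 other scalings, cells thinned to 1000 UMIs, other minimum counts, genes at least as high as in other cells, and the *Ptprc* denominator. Leaving out the 4 clusters led by other lineages was chosen after seeing the data.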

Additional observations from a re-analysis of the deposited data

Results flagged for a closer look

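*Ccl3* and *Ccr7* differed in opposite directions in NK cells and in CD8 T cells between the same libraries. Each cell type gave 1 profile per library, so the difference between the cell types was not tested. *Ccl3* had a log2 ratio of -1.27 at 1 dpi against Uninjured in NK cells (-1.39 over the NK-led cells) and of 1.16 in CD8 T cells, where it stood at 44.9, 100.1, 54.9 and 58.5 CPM. *Ccr7* had a log2 ratio of 3.19 at 3 dpi against 1 dpi in NK cells (3.84 over the NK-led cells) and of -1.90 in CD8 T cells, where it stood at 356, 281, 74.9 and 126 CPM. The NK level of *Ccr7* at 3 dpi came from 12 cells.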

How the results depend on the processing

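No paired analysis was possible because each time point has a single library, and for the same reason no replicate could be left out. The differences in the share of all cells (1 dpi minus Uninjured, 3 minus 1 dpi and 7 minus 3 dpi) were 2.36, 0.429 and -2.34 points with at least 2 UMIs of *Ncr1* and *Klrb1c*. They were 1.59, -0.134 and -1.52 points without cells holding 3 or more UMIs of another lineage list or a *Trac* or *Cd8a* UMI, and the interval of the second includes 0. The last was -2.16 points without the *Ptprc* condition, and the first was 3.63 points with a mitochondrial limit of 5%. Among *Ptprc* cells the differences were -1.07, 5.96 and 0.116 points, of which the first and last have the opposite sign to those among all cells.

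Counts of genes past 2-fold (higher and lower) were 436 and 145 at 1 dpi, 558 and 109 at 3 dpi, and 379 and 727 at 7 dpi. They became 113 and 28 at 1 dpi, 89 and 135 at 3 dpi and 26 and 119 at 7 dpi without cells holding 3 UMIs of another lineage. At 3 dpi more genes were thus counted lower than higher, the opposite of the main values. This setting also leaves 61, 229, 279 and 104 cells and so fewer genes to compare. Without the 4 clusters led by other lineages they were 66 lower at 1 dpi, 293 higher at 3 dpi and 59 and 411 at 7 dpi. Cells thinned to 1000 UMIs gave 71 and 32, 89 and 25, and 138 and 274. A minimum of 50 expected UMIs gave 135 and 63, 277 and 39, and 206 and 369, and a minimum of 5 gave 1325 and 426, 1138 and 335, and 796 and 1307, since these settings change how many genes are compared. Among genes at least as high as in other cells, 43 were lower at 1 dpi, 192 higher and 46 lower at 3 dpi, and 25 higher at 7 dpi. Without the *Ptprc* condition 229 were lower at 1 dpi and 599 higher at 7 dpi, the depth and doublet filter gave 68 lower at 1 dpi, and TMM and median of ratios factors gave 446 and 372 lower at 7 dpi. Where no construction is named, the cause was not tested.

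Of the named genes, 10 values changed sign. Without the *Ptprc* condition *Acta2* had a log2 ratio of -2.10 at 1 dpi, and *Acta1* and *Mylpf* of 0.50 and 0.18 at 7 dpi. Without cells holding 3 UMIs of another lineage *Tmem176a* was at -0.33 at 3 dpi and *Acta2* at -1.07 at 7 dpi, and with the depth and doublet filter *Mylpf* was at 2.06 at 7 dpi. Without the 4 clusters *Tmem176a*, *Tmem176b* and *Apod* were at -0.072, -0.0051 and -1.50 at 3 dpi and *Igkc* at -1.59 at 7 dpi. Of the other values of named genes under these settings, 7115 lay within the counting interval of the main value and 1201 outside it without a change of sign of a called value. Of the summed levels of lists, 452 values lay within it and 328 outside.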

Other observations

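*Gm42418*, a locus that overlaps ribosomal RNA repeats, was at 13057, 49406, 39715 and 38460.5 CPM in NK cells and at 12246, 42081, 23249 and 30328 CPM in all other cells, so that it was lowest in the Uninjured library in both. The nuclear long noncoding RNA *Malat1* was at 30385, 17513, 12900.4 and 22729 CPM in NK cells. The effect of these genes on the share left for other genes was not tested.

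Some differences between the libraries were found in other cells as well. Of 2678 genes compared in NK-led cells, 215 were at least 1.5-fold higher in both the 1 and 3 dpi libraries than in both others, 117 of these also in CD8 T cells and 41 also in mesenchymal cells. The reverse held for 40 genes, of which 6 also in CD8 T cells and 5 also in mesenchymal cells.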
